A study of Drosophila melanogaster with 30 samples.

Results

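In whole male pupae of Drosophila melanogaster, 66 of 15744 array probes had deposited ratios that pointed in opposite directions in a pair of fru mutants, and these 66 probes are described here. The members were chosen by the whole-body values. A probe was kept where its mean log2 ratio over replicates 1 to 4 (fru-440/fru-P14) and its mean over replicates 5 to 8 (fru-w12/fru-ChaM5) had opposite signs and a size of at least 0.5, each mean from at least 3 values. A value on at least 1 of the 22 arrays of the central nervous system (CNS) or brain was also needed, and 32 control spots were left out. Of all probes, 6204 (39.4%) had enough whole-body values in both mutants, so the 66 members were 1.06% of those that could have been chosen. In 39 members the ratio was positive in fru-440/fru-P14 and negative in fru-w12/fru-ChaM5, and in 27 members it ran the other way.

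The fruitless gene (fru) makes transcripts from its P1 promoter that are spliced differently in the sexes. In males they encode FRUM, a family of BTB zinc finger transcription factors present in a subset of neurons and needed for male courtship. EcR-A is an isoform of the ecdysone receptor, the nuclear receptor through which the steroid hormone ecdysone times metamorphosis, the remodelling of the larva into the adult. The probes carry plate positions as identifiers, for example DAC023H22, and no gene name, genome position or sequence was used for any of them. The tissue labels could not be checked against marker genes for the same reason.

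The whole-body arrays compared fru-440/fru-P14 males with Canton S males (4 arrays) and w; fru-w12/fru-ChaM5 males with w; Berlin males (4 arrays) at 48 h after puparium formation (APF), with about 30 pupae pooled in an extract. Each mutant combination had its own control strain, so the fru lesion and the strain background cannot be told apart in either. The same mutants and control strains were compared in the CNS at 48 h, with 3 arrays for each combination and tissue of about 20 animals in an extract. Canton S females were compared with Canton S males in CNS extracts of that size at 48 h (4 arrays). In the RNAi experiments fru P1-GAL4; uas-EcRA RNAi males were compared with fru P1-GAL4; + males, on 4 arrays at each of 0 h, 48 h and the first 24 h of adult life. In the RNAi males the construct is driven only where the fru P1-GAL4 driver is active, and the controls carry that driver too. By the labels' source names the 0 h extracts held brain with ventral nerve cord and the later ones brain, whereas every title says CNS. The series' design text calls the samples independent biological samples.

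Between 3934 and 11533 probes had a value on an array. On 27 arrays the values had the form of log2 ratios with a standard deviation (SD) over probes of 0.352 to 0.689. On 3 arrays, replicates 2 to 4 of the RNAi experiment at 48 h, the SD was 1.41 to 2.67, so only their signs are used. The labels do not say which sample of an array a positive ratio favours, and the whole-body sign is not tied to the CNS sign. All signs below are those of the deposited values. Ratios were read as already turned to 1 direction across the dye orientations of an experiment. If the whole-body ratios instead ran Cy5 over Cy3, 0 probes would meet the rule. In bulk extracts, fewer cells of a type and less RNA in each cell cannot be told apart.

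The whole-body values chose the members, so they are given as a description with no test. The widest gaps were carried by a few probes. DAC034F02 had values of -0.58, -0.37, -1.26 and -0.70 in fru-440/fru-P14 and of 3.96, 5.52, 4.65 and 4.47 in fru-w12/fru-ChaM5. Its means were -0.73 ± 0.383 and 4.65 ± 0.647 (SD, n = 4 each), and the gap of -5.38 log2 units, a 41.7-fold difference between the mutants' ratios, lay mostly in the second mutant. DAC037E21 ran the other way, with 2.35, 3.86, 3.15 and 2.98 in fru-440/fru-P14 and -0.51, -1.47 and -1.66 in fru-w12/fru-ChaM5. DAC032I05 had 3.63, 3.67, 2.48 and 2.60 in the first mutant and -0.53, -0.81, -0.63 and -0.88 in the second. For these 3 probes no array of 1 mutant overlapped an array of the other, but the rule chose on these same arrays and favours such separation.

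**Figure D1:**
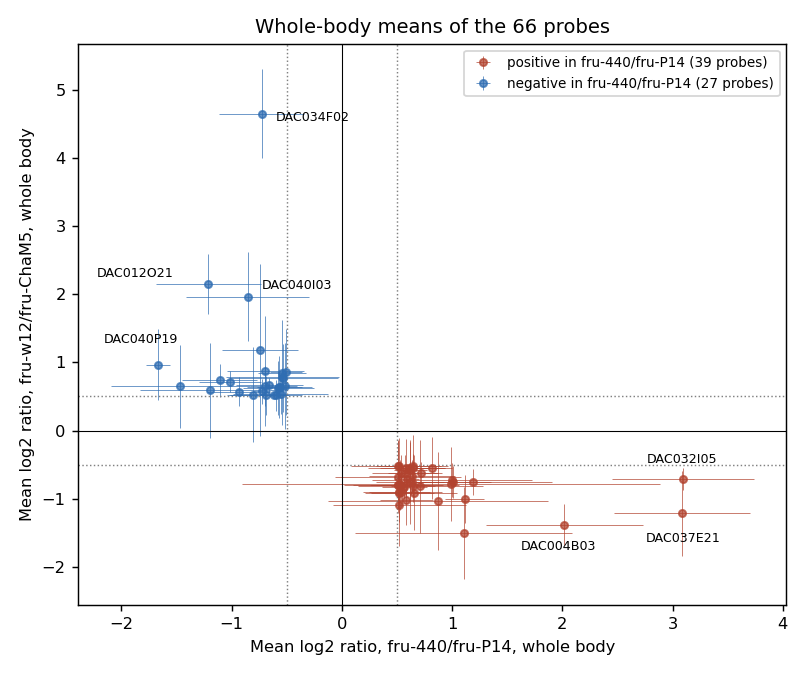
Whole-body mean log2 ratio of each of the 66 probes in fru-440/fru-P14 (horizontal axis) and fru-w12/fru-ChaM5 (vertical axis), with SD bars over 3 or 4 arrays and dotted lines at the 0.5 limit. Most probes sit close to the limit, and a few such as DAC034F02 (-0.73 and 4.65) and DAC037E21 (3.08 and -1.21) lie far out along 1 axis.

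Among members positive in fru-440/fru-P14, DAC004B03 was the one with the largest smaller mean. Its values were 2.71, 2.53, 1.27 and 1.56 in that mutant and -1.0, -1.33, -1.71 and -1.48 in fru-w12/fru-ChaM5 (means 2.02 ± 0.712 and -1.38 ± 0.30, n = 4 each). DAC027K22 had means of 1.11 ± 0.178 and -1.0 ± 0.352 (n = 4 each). DAC025C13 had 1.11 ± 0.985 (n = 3) and -1.51 ± 0.676 (n = 4), DAC027G15 had 1.19 ± 0.709 and -0.76 ± 0.191, and DAC026F21 had 0.64 ± 0.201 and -0.82 ± 0.159 (n = 4 each for both probes). DAC011L20 met the rule without agreement among its arrays: it was at 0.73, -0.76 and 3.01 in fru-440/fru-P14, an SD of 1.90.

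Among members negative in fru-440/fru-P14, DAC012O21 had the largest smaller mean, with -1.21 ± 0.479 and 2.15 ± 0.440 (n = 4 each). DAC040I03 had -0.86 ± 0.560 (n = 3) and 1.96 ± 0.651 (n = 4). Both had values on 9 of the 18 log2 CNS and brain arrays, under the 10 set for naming, and are added after their values were seen. DAC040P19 was steady in that mutant, with -1.53, -1.64, -1.80 and -1.70 (mean -1.67 ± 0.112, n = 4). Its values in fru-w12/fru-ChaM5 were 1.01, 1.47 and 0.43 (mean 0.97 ± 0.520, n = 3). DAC023H22 had -0.69, -1.20 and -1.15 against 0.92, 0.69, 0.55 and 0.72. DAC007J10 had means of -1.11 ± 0.338 (n = 3) and 0.74 ± 0.244 (n = 4). DAC032J10 had -0.70 ± 0.138 and 0.65 ± 0.288 (n = 4 each), and DAC004N17 had -0.66 ± 0.304 (n = 4) and 0.66 ± 0.111 (n = 3). In DAC014P12 and DAC040G22 the fru-w12/fru-ChaM5 arrays disagreed in sign, with a lowest value of -0.15 and -0.23 beside means of 1.19 ± 1.27 (n = 3) and 0.87 ± 0.806 (n = 4).

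**Figure D2:**
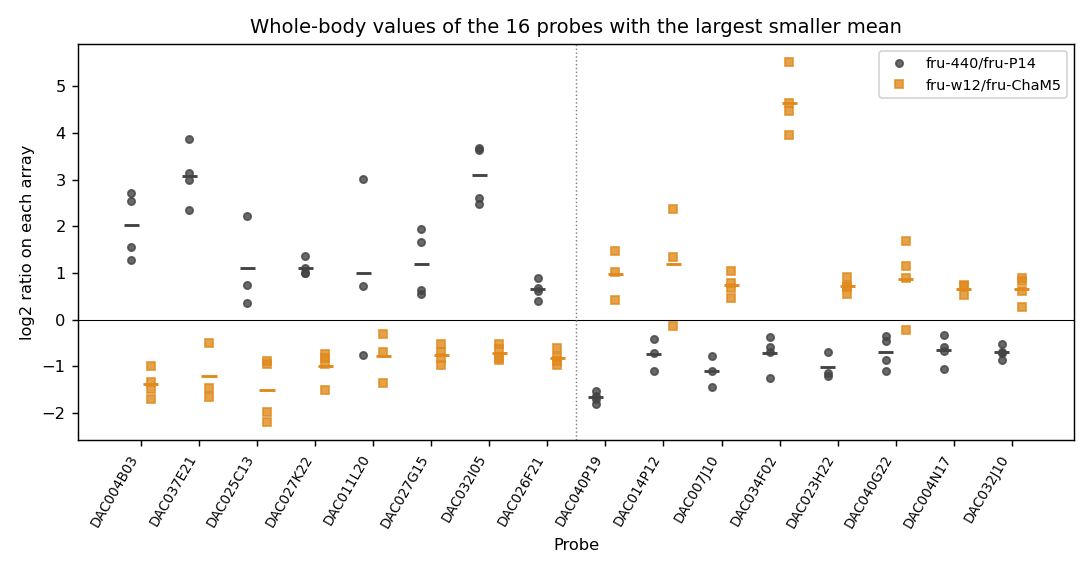
Whole-body log2 ratio on each array for the 16 named probes, 8 in each direction, with circles for fru-440/fru-P14, squares for fru-w12/fru-ChaM5 and a short bar at each mean. The mutants overlap in DAC011L20, and DAC011L20, DAC014P12 and DAC040G22 each hold an array whose sign opposes its mean.

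Few members were large in both mutants. The size of both means reached 1 in 5 of 66 members, and at least 1 of the means reached 1 in 19. The smaller of the means was under 0.6 in 38 members (57.6%), so most of the set lay close to the limit. Just inside it were DAC033E13 (0.51 and -0.80) and DAC027E22 (-0.51 and 0.86), and just outside were DAC033M19 (0.497 and -0.56) and DAC015K05 (-0.49 and 0.94). The class medians were 0.62 and -0.76 for probes positive in fru-440/fru-P14, and -0.69 and 0.66 for those negative in it.

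Replicates mostly kept to the sign of their mean, which the rule favours because it asks for large means on these arrays. In 52 members every array of each mutant had the sign of that mutant's mean, and in 14 at least 1 array did not. The same held for 901 of the 6204 probes with enough values, and for 58 of the 84 that moved alike. Of the members, 41 had all 8 values. The members' median SD was 0.312 in fru-440/fru-P14 and 0.358 in fru-w12/fru-ChaM5. It was 0.224 and 0.298 over the 6204 probes with enough values. With the same limits 84 probes moved alike, 16 of them positive and 68 negative in both mutants, and their median SDs were 0.415 and 0.540. Leaving out 1 array at a time gave between 63 and 112 probes, and 112 came without replicate 3. In these runs the mutant that lost an array needed 1 value fewer for its mean.

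The classes differed in how often they were measured in the CNS. Over the 18 CNS and brain arrays on the log2 scale, members positive in fru-440/fru-P14 had a median of 8 values, those negative in it 12 and the 6204 probes 15. Under 9 values were found in 21 of 39 (53.8%) and in 1 of 27 (3.7%) members of these classes, against 28.5% of the 6204. The part of missing values in the results below was not tested. Members came from 29 of 41 plates, and the fullest, plate 40, held 6 of its 152 probes with enough values (3.95%).

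The CNS arrays of the same mutants offer values that the choice of members did not use. Each mutant was hybridised in 1 dye orientation there, fru-w12/fru-ChaM5 on Cy5 and fru-440/fru-P14 on Cy3. The difference between the mutants (fru-440/fru-P14 minus fru-w12/fru-ChaM5) was therefore fitted with a dye term estimated from the other CNS experiments, using limma with Benjamini-Hochberg adjustment over all probes tested. The fit takes the dye effect to be the same in all CNS experiments. Over probes, the dye part correlated at 0.432 between sex and RNAi at 0 h. It was 0.607 between sex and adult RNAi, and 0.498 between RNAi at 0 h and in adults. Of 42 members tested, 1 passed adjusted p of 0.05 (2.38%), against 19 of 7290 probes (0.261%). At unadjusted p of 0.05 it was 8 of 42 (19%) against 13.7%. With no dye coefficient 3 members and 199 probes passed the adjusted threshold, and 9 of the 199 were among the 19.

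The member that passed was DAC023H22, and it had the smallest p of all 7290 probes. In the CNS its values were -0.85, -1.88 and -1.18 in fru-440/fru-P14 and 0.98, 0.85 and 0.82 in fru-w12/fru-ChaM5. All 3 arrays of each mutant had the sign of that mutant's whole-body mean, and the groups did not overlap. The fitted difference was -2.44 ± 0.258 (SE, n = 3 arrays each, limma adjusted p = 0.00025), from -1.43 ± 0.166 and 1.01 ± 0.166 in the separate mutants. Were the CNS values Cy5 over Cy3, the sign of the fru-440/fru-P14 values would turn and the probe would have changed in the same sense in both mutants, with a difference of 0.60 (adjusted p = 0.485). With the dye term taken from the sex experiment alone the difference was -2.45 (adjusted p = 0.109), and over its 14 alternatives the adjusted p ran from 3.88e-05 to 0.485.

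DAC034F02, the probe with the widest whole-body gap, had CNS values of -0.86, -1.01 and -0.20 in fru-440/fru-P14 and 1.02, 0.82 and 1.6 in fru-w12/fru-ChaM5. The groups again did not overlap and had the whole-body signs. Its difference of -2.0 ± 0.413 (SE) missed the threshold (limma adjusted p = 0.0538) and passed it in 5 of 14 alternatives. It was -0.31 (limma adjusted p = 0.828) under the Cy5 over Cy3 reading. With the dye term from the sex experiment alone it was -1.47 (adjusted p = 0.494), and over all 14 the adjusted p ran from 0.0116 to 0.828. DAC037B14 had -0.60, -0.91 and -0.38 in the first mutant and 0.0041, -0.21 and 0.12 in the second, a fitted difference of -1.54 ± 0.304 (adjusted p = 0.0614). Its plain CNS means were -0.63 and -0.03 and its dye coefficient was -0.47, so most of the fitted difference came from the dye term. DAC026F21, whose whole-body difference was positive, had a CNS difference of -1.31 ± 0.393 (limma adjusted p = 0.164). It was -0.53 with no dye coefficient and -0.56 under the Cy5 over Cy3 reading, and it passed in 0 of 12 alternatives (adjusted p from 0.15 to 0.954).

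**Figure D3:**
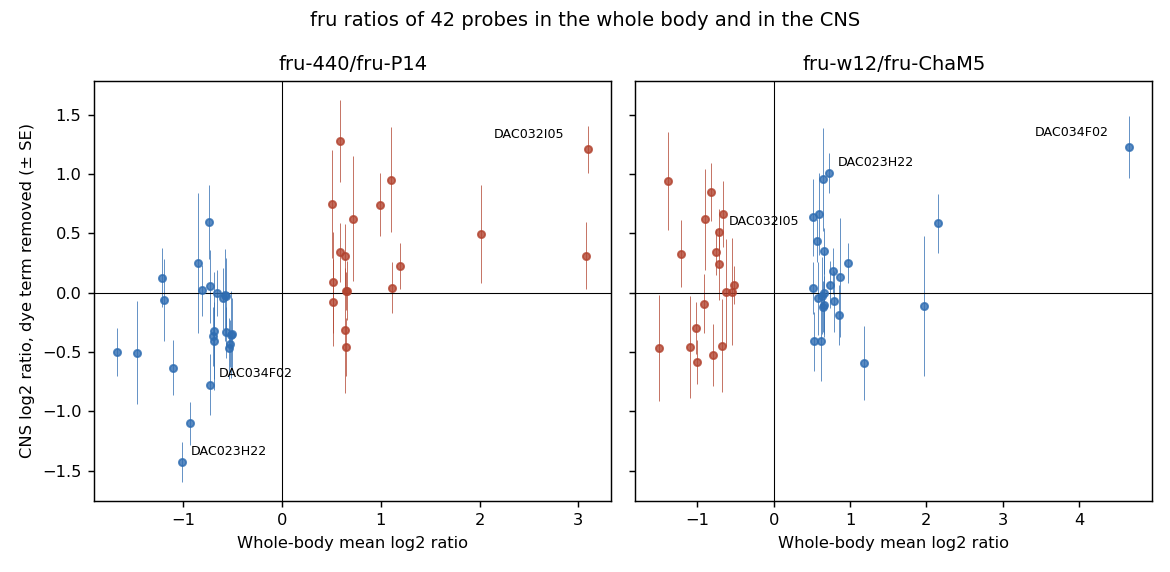
CNS log2 ratio with the dye term removed (vertical axis, bars are SE) against whole-body mean log2 ratio (horizontal axis) for the 42 members tested, in fru-440/fru-P14 on the left and fru-w12/fru-ChaM5 on the right. Colours give the whole-body class, red for positive and blue for negative in fru-440/fru-P14. In the left panel 34 of 42 probes share the sign of body and CNS, in the right panel 20 of 42.

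The share of members with the same sign in CNS and body is given for each mutant, and the difference between these shares was not tested. With the dye term removed, 34 of 42 members (81%) had the whole-body sign in the CNS of fru-440/fru-P14, against 54.4% of 4161 other probes measured in both tissues. In fru-w12/fru-ChaM5 it was 20 of 42 (47.6%), against 49.7%. The plain CNS means, available for 62 members, gave 43 (69.4%) and 28 (45.2%), against 55.3% and 45.3%. Pearson's r between body and CNS over the 42 members was 0.618 and 0.258, against 0.159 and -0.09 over the 4161 other probes. The rule leaves no member with a whole-body mean near 0, so r over both classes also holds the offset between them. Within the class positive in the fru-440/fru-P14 body (18 members) r was 0.339 and 0.0733. Within the other class (24 members) it was 0.19 and 0.412. The points share arrays and the dye term, and the members were chosen for large whole-body values. Under the Cy5 over Cy3 reading the plain-mean shares of members were 30.6% and 45.2%, and r from plain means in fru-440/fru-P14 turned from 0.501 to -0.501.

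Of 42 members, 26 (61.9%) had opposite fitted signs in the CNS, against 61.3% of the other probes. Of these 26, 19 (73.1%) were opposite in the same way as in the body, against 55.9% of 1484 other probes with opposite signs in both tissues. These shares turn on the direction of the ratios. By plain means 56.5% of 62 members were opposite in the CNS, against 65.4% of other probes, and under the Cy5 over Cy3 reading 43.5% were, against 34.6%. Under that reading 6 of 27 opposite members (22.2%) ran as in the body, against 30.9% of other probes. By raw values, 53 members had at least 2 values from each CNS mutant. Among them 15 (28.3%) held 1 sign in each mutant and opposite signs between mutants, against 26.9% of 4673 probes. Of the 15, 10 (66.7%) ran as in the body, against 53% of 719 other probes with opposite body signs. Under the Cy5 over Cy3 reading all 15 would have a common sign in both mutants. Besides DAC023H22 and DAC034F02 these 10 were DAC007D10, DAC007J10, DAC011L20, DAC012B08, DAC031N18, DAC033E13, DAC034J07 and DAC040P19. In DAC040P19, for example, the CNS values were -0.78 and -0.45 in fru-440/fru-P14 and 0.31, 0.42 and 0.36 in fru-w12/fru-ChaM5. These probes are named for this count after their values were seen.

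A further 6 of the 53 members (11.3%, against 7.92%) had a single sign on every CNS array of both mutants, and in all 6 it was the sign of the fru-440/fru-P14 body, as it was in 77.4% of 230 other probes with opposite body signs. Under the Cy5 over Cy3 reading these 6 would have opposite signs in the mutants. They were DAC004B03, DAC023G22, DAC024A12, DAC029B21, DAC032I05 and DAC037C07, named for this count after their values were seen. All 6 belonged to the class positive in fru-440/fru-P14. The remaining 32 members had mixed signs.

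The mean of both mutants in the CNS averages the ratios of the mutants, each against its own control strain, and it balances the dyes. It does not require that both mutants shift, and it does not separate the lesion from the strain background. Of 44 members tested, 1 passed (2.27%), against 64 of 7461 probes (0.858%), and 10 (22.7%) had an unadjusted p under 0.05, against 13%. The positive share differed between the classes by count, which was not tested. Of the 21 tested members positive in the fru-440/fru-P14 body, 18 (85.7%) had a positive CNS mean, 8 had an unadjusted p under 0.05, and the median was 0.24. Of the 23 tested in the other class, 8 (34.8%) were positive, 2 had an unadjusted p under 0.05, and the median was -0.12. Over all 7461 probes 41.7% were positive and the median was -0.03.

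DAC032I05 was the member that passed. It had CNS values of 1.01, 1.01 and 0.34 in fru-440/fru-P14 and of 1.08, 0.66 and 1.05 in fru-w12/fru-ChaM5, positive on all 6 arrays, whereas its body values had opposite signs. The mean was 0.86 ± 0.116 (SE, n = 6, limma adjusted p = 0.0047). It passed in 12 of 15 alternatives and not with all 22 arrays in the fit (adjusted p = 0.485), without a dye coefficient (0.128) or with ratios read as Cy5 over Cy3 (0.07 log2, adjusted p = 0.682); the adjusted p otherwise ran from 0.00259 to 0.0446. DAC037C07 followed with 0.48 ± 0.117 (adjusted p = 0.0648) and DAC004B03 with 0.72 ± 0.187 (adjusted p = 0.0856), and neither passed. DAC004B03 passed in 1 of 15 alternatives, the experiment fitted alone (adjusted p = 0.0282, highest 0.902 over all 15), and was -0.40 under the Cy5 over Cy3 reading. DAC004B03 was positive on each CNS array, at 0.93, 1.55 and 0.89 in fru-440/fru-P14 and 0.39, 0.26 and 0.29 in fru-w12/fru-ChaM5.

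**Figure D4:**
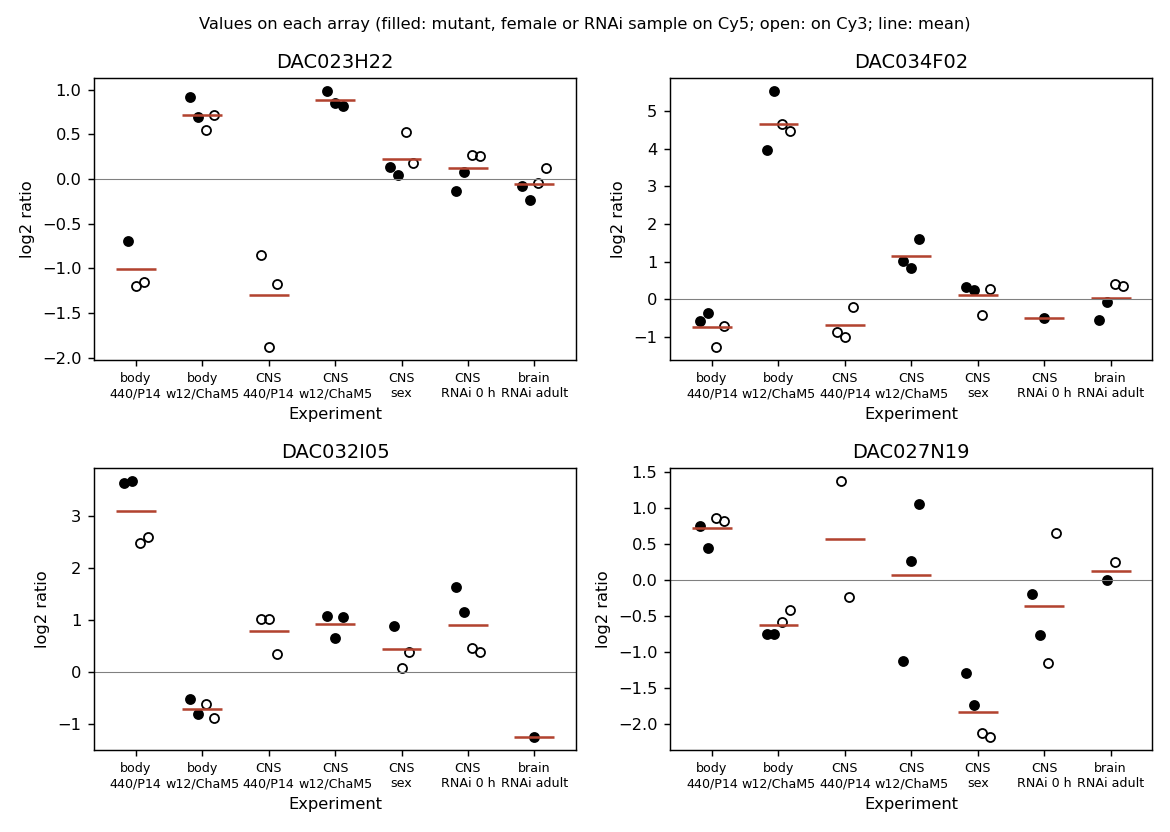
Log2 ratio on each array for DAC023H22, DAC034F02, DAC032I05 and DAC027N19 in the 7 groups on the log2 scale, with filled points where the mutant, female or RNAi sample carried Cy5, open points where it carried Cy3, and a line at each mean. In DAC023H22 and DAC034F02 the fru mutants have opposite signs, and each mutant has the same sign in body and CNS. DAC032I05 is positive on all 6 fru CNS arrays, and DAC027N19 is negative on all 4 arrays of the sex experiment.

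Between Canton S females and males, 1 of 42 members tested passed (2.38%), against 45 of 7414 probes (0.607%), and 6 (14.3%) had an unadjusted p under 0.05, against 7.59%. The probe was DAC027N19, with values of -1.29, -1.74, -2.13 and -2.18 and a mean of -1.84 ± 0.355 (SE, n = 4, limma adjusted p = 0.0466), so it was negative on 4 of 4 arrays. It lost its call in 9 of 13 alternatives, and leaving out any array ended it (adjusted p from 0.149 to 0.175); over all 13 the adjusted p ran from 0.00202 to 0.567. Its fru values in the CNS had no common sign, at 1.37 and -0.24 in fru-440/fru-P14 and -1.13, 0.26 and 1.06 in fru-w12/fru-ChaM5. DAC012I07 was also negative on 4 of 4 arrays, at -0.51, -0.62, -1.41 and -1.62, and did not pass (adjusted p = 0.125).

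The median size of the fitted sex ratio was 0.23 log2 units over the 42 members and 0.11 over the 7414 probes. It was also 0.23 over the 61 tested probes that moved alike in both bodies, of which 27.9% had an unadjusted p under 0.05, so a wider spread was not particular to the members. A single sign on every array with a value was seen in 11 of the 42 (26.2%), against 11.6%. Signs differed by class on each array: on the 4 arrays between 15.8% and 45.5% of the members positive in the fru-440/fru-P14 body had a positive ratio, against 44% to 80% of the other class and 45.7% to 53.3% of all probes. DAC023H22 was at 0.13, 0.04, 0.53 and 0.18, positive on 4 of 4 arrays, and did not pass.

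Under EcR-A RNAi at 0 h, 1 of 26 members tested passed (3.85%), against 22 of 5934 probes (0.371%), and 2 (7.69%) had an unadjusted p under 0.05, against 7.84%. DAC032I05 was again the probe. It was positive on 4 of 4 arrays at 1.64, 1.16, 0.46 and 0.39, with a mean of 0.91 ± 0.142 (SE, n = 4, limma adjusted p = 0.0182). The 2 higher values came from 1 dye orientation and the 2 lower from the other. It kept its call in 3 of 13 alternatives, with adjusted p from 0.0183 to 1.00 over all 13. Leaving out replicate 1, 2 or 4 ended it (adjusted p = 0.43, 0.0862 and 0.139). DAC031N18, at 0.61, 0.36 and 0.67, had a dye-adjusted fitted ratio of 0.57 ± 0.138 (SE) and did not pass (n = 3, limma adjusted p = 0.138).

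In the adult brain, 0 of 18 members tested passed limma's test, against 3 of 5992 probes (0.0501%), and 1 of 18 (5.56%) had an unadjusted p under 0.05, against 3.79%. No other tool was run. None of the 18 held a single sign on all its arrays, against 4.09% of all probes. The signs there moved with the dye orientation: members were positive in 28.1% and 27.8% of cases on the arrays with the RNAi sample on Cy5 and in 60.7% and 72.2% on those with it on Cy3, while all probes stayed between 46.9% and 51.3%. DAC004B03, for example, was at -1.46 and -0.96 in 1 orientation and 2.06 and 1.19 in the other. The part of the dye in these values was not tested.

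At 48 h of RNAi only signs can be read. Of 28 members with at least 3 values, 13 (46.4%) had 1 sign on every array, against 17.7% of all probes, and 10 of the 13 were negative. Over all probes 762 had 1 sign on every array, and 347 of these were negative. In the class positive in the fru-440/fru-P14 body all 7 such members were negative, DAC004B03 and DAC027N19 among them, and on the 4 arrays 11.8% to 31.2% of the class was positive, against 48.5% to 55.2% of all probes. DAC032I05, which was positive at 0 h, was negative on all 4 arrays at 48 h and on its only adult array.

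**Figure D5:**
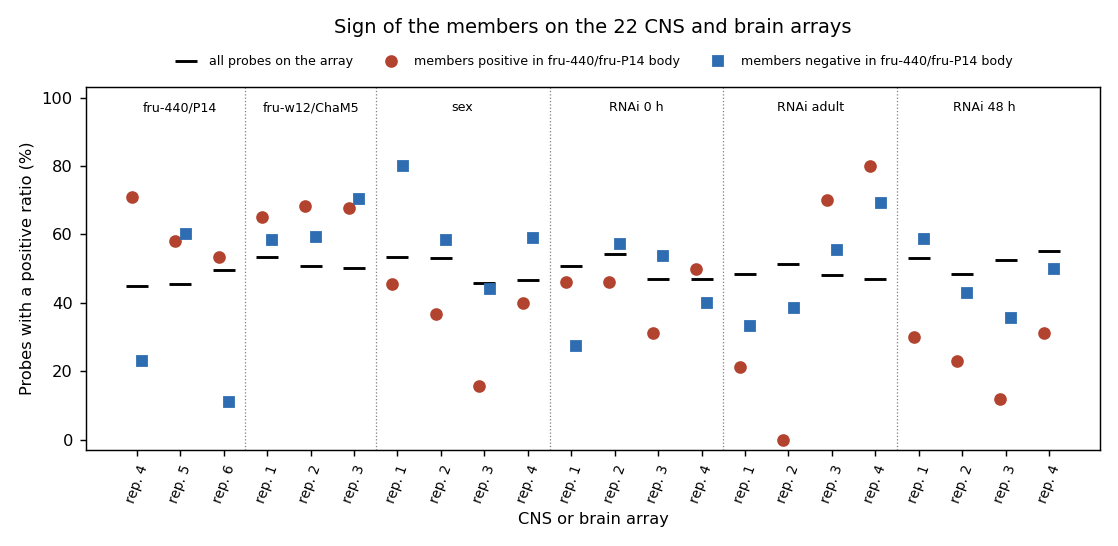
Percent of probes with a positive ratio on each of the 22 CNS and brain arrays, for members positive (circles) and negative (squares) in the fru-440/fru-P14 body and for all probes on the array (bars). All probes lie between 44.9% and 55.2%, while the members positive in the body lie under them at 48 h of RNAi and swing with the dye orientation in adults.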

How the data were processed

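Whole-pupa cDNA was labelled directly and RNA of the dissected tissue was labelled as amplified cRNA, per the labels' protocols, on 2-channel spotted arrays. The submitters' processing notes name limma; the version, background correction and normalization behind the deposited values are not stated in the sources used here. On 27 arrays the deposited values have the form of log2 ratios. On 3 arrays they were treated as a deposited score of unknown scale. Of the deposited columns, 0 lacked a sample.

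The members, lists and tests were chosen with earlier results of these data known. Gene lists and cell type markers fixed for naming could not be used, since probes were not paired with genes here. Testing used lmFit and eBayes of limma 3.58.1 (R 4.3.3), two-sided at 0.05 after Benjamini-Hochberg adjustment over all probes tested. The 18 log2 CNS and brain arrays entered 1 fit, with 1 effect and 1 dye coefficient for each experiment. The design had planned all 22 arrays in it, which became an alternative once 3 proved to be off scale. Each SE is limma's, from a probe's spread over all arrays of the fit after the dye terms, moderated across probes. The n beside it counts only the arrays of the comparison. A probe was tested with values on at least 75% of an experiment's arrays and at least 1 in each dye orientation. The difference between fru mutants used 1 dye coefficient shared by all experiments and at least 2 values in each mutant. The probe also had to meet the coverage rule above in at least 1 of the other CNS experiments. By this, 42 members were tested, while 53 had at least 2 values in each mutant. The fits were tested on simulated data. Precision is limited by the number of arrays, and the signal over background is unknown.

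Probes named were the 8 in each direction with the largest smaller whole-body mean among members with values on at least 10 of the 18 log2 CNS and brain arrays, every member called in any of 5 tests, and those nearest the limit. Others (among them DAC012O21, DAC040I03, DAC037B14, DAC037C07, DAC012I07 and DAC031N18) were named after their values were seen. Alternatives changed the limit, the coverage needed, the dye term, centring, the arrays fitted and the ratio's direction, and left out each array in turn. An estimate of the spread from tested probes only was added after seeing the data.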

Additional observations from a re-analysis of the deposited data

Results flagged for a closer look

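DAC034F02 had a value of -0.408 on replicate 3 of the sex experiment, while its other 3 values lay between 0.259 and 0.333. The gap was 0.901 of the range, above Dixon's critical value for 4 samples. It was the only one of 60 groups of 4 values checked among the named probes, and chance gives about 1 in 20.

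The difference of DAC023H22 between the fru mutants in the CNS was -2.44 log2 units (limma adjusted p = 0.00025), which passed the test of the difference itself. Each mutant had 1 dye orientation there, and under a Cy5 over Cy3 reading the difference was 0.60.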

How the results depend on the processing

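No paired analysis was possible because every comparison is a ratio within an array and the fru mutants share no replicate numbers. The number of members, 66, became 175 at a limit of 0.4, 18 at 0.7 and 41 with 4 values in each mutant. It was 70 with medians (46 of them shared) and 0 with body ratios read as Cy5 over Cy3. Leaving out 1 array, with 1 value fewer needed for the mutant that lost it, gave 63 to 112. The members called in limma's tests numbered 1 in each test but the adult one, which had 0. For sex 45 probes passed in the main fit. The number of members was 0 with at least 2 values for both dye orientations and with a value on every array. It was also 0 with all 22 arrays, with centring and in each of the fits without 1 array (0 to 0). Between 6 and 36 probes passed in these settings. It was 2 with the experiment fitted alone, where 75 probes passed. Under the Cy5 over Cy3 reading 2 members and 794 probes passed, and DAC027N19 was not among the 2. For the fru mean 64 probes passed in the main fit. The number of members was 2 with at least 2 values in each orientation (132 probes in all) and with the experiment fitted alone (36). It was 0 with all 22 arrays (1 probe in all) and with no dye coefficient (4). Under the Cy5 over Cy3 reading 12 members and 1941 probes passed, and DAC032I05 was not among the 12. Without 1 array 1 to 5 members passed. Of these fits, 5 members and 200 probes came without replicate 1, and 4 members and 169 probes without replicate 6. For the difference between mutants 19 probes passed in the main fit. The number of members was 2 with at least 2 values in each orientation (38 probes in all) and with a value on every array (37). It was also 2 with the spread from tested probes only (41), and 3 with no dye coefficient (199). It was 0 with the dye from the sex experiment alone (0 probes in all) and under the Cy5 over Cy3 reading (44). Without 1 array it was 1 to 2, with 2 coming without replicate 6 (33). This difference could not be fitted with the experiment alone. For RNAi at 0 h it was 0 with at least 2 values in each orientation, with a value on every array, with the experiment fitted alone, with all 22 arrays, with no dye coefficient and with 1 shared dye coefficient, and 0 to 1 without 1 array. For RNAi in adults it was 10 under the Cy5 over Cy3 reading, where 1836 probes passed, and 0 otherwise, where 0 to 22 probes did. The difference between mutants had the same fitted sign in CNS and body in 69% of 42 members, against 52.5% of 4161 other probes. By class the share was 55.6% of 18 members positive in the fru-440/fru-P14 body and 79.2% of 24 in the other class. By plain means, over 62 members, it was 54.8%, against 50% of other probes. Under the Cy5 over Cy3 reading of these 62 it was 25.8%, against 43%. Calls over all probes ran from 6 to 794 for sex, 1 to 1941 for the fru mean, 0 to 199 for the difference, 0 to 482 for RNAi at 0 h and 0 to 1836 for adults. Under the Cy5 over Cy3 reading 37 of 76 values of named probes changed sign, 27 of them passing the test under neither reading and 10 passing under at least 1 of them: DAC011L20 (-1.04), DAC040P19 (0.49), DAC007J10 (0.77) and DAC023H22 (1.09) for the fru mean, DAC023H22 (0.60) for the difference, DAC027N19 (0.32) for sex, DAC027K22 (0.46) for RNAi at 0 h, and DAC004B03 (-1.42), DAC004N17 (-0.57) and DAC032J10 (-0.52) for adults. That reading turns the sign of arrays by dye. Some settings leave a smaller number of arrays or probes, and the causes of the other changes were not tested.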
